A study of Mus musculus with 48 samples.

Results

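The 34 genes described here are nuclear genes for mitochondrial respiratory complexes II to V: 4 of complex II, 9 of complex III, cytochrome c (Cycs), 6 of complex IV and 14 of complex V. They were given as a list of symbols and matched to the Ensembl identifiers of the deposited tables through GENCODE M21, with newer names of Atp5 genes counted as the same gene. All 34 were found among the 22055 genes of the tables; the rule for finding them reads symbols, not levels. RNA-seq of poly(A) RNA and ribosome profiling (Ribo-seq, which sequences the mRNA fragments protected by ribosomes, called footprints) had been done on wild-type C57BL/6 mice, whole brain, retina, heart, kidney, liver and lung each being sampled at postnatal day 42 (P42) and at embryonic day 15.5 (E15.5). Each tissue, stage and assay had 2 biological replicates per the labels, which gives 24 groups and 48 libraries. The labels name no transgene, treatment or mutation, and do not say how many animals gave a library. Values are in TPM, a transcript level scaled to gene length and library total, so a difference between libraries is relative to all other RNA in them. RNA-seq TPM can be compared between genes. Ribo-seq TPM allows this only with a limit, because whole exons are counted while footprints lie mainly on coding sequence.

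In oxidative phosphorylation, complexes I and II take electrons from NADH and succinate and pass them through ubiquinone to complex III, cytochrome c and complex IV, where oxygen is reduced. Proton pumping by complexes I, III and IV drives complex V, the ATP synthase, while complex II (succinate dehydrogenase) pumps none and is also an enzyme of the citric acid cycle. Mitochondrial DNA encodes a few core subunits of complexes I, III, IV and V, and the nucleus encodes all others, including every subunit of complex II. Heart muscle and the proximal tubules of the kidney are known for a high density of mitochondria.

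The DNA before the start is shown for 6 of the genes, as examples that do not stand for the rest. RefSeq promoter sequences (build GRCm38.p6, 250 bases before to 50 bases after a start) were matched by symbol for 27 of the 34 genes, and 7 were not in that table. Each stretch printed is 120 bases long, ends at or before the annotated start of the gene, and is written 5′ to 3′ on the gene's own strand, which is the minus strand for all 6. Capitals mark matches on either strand to NRF1 (GCGCA, then any base, then GCGC), ETS (CCGGAAG) or ERR (TNAAGGTCA), motifs named after transcription factors known to act on respiratory genes. The stretches lie at chr13:74350281-74350400 for Sdha, chr10:80406831-80406950 for Uqcr11, chr2:174464106-174464225 for Atp5e, chr2:73911327-73911446 for Atp5g3, chr11:115419963-115420082 for Atp5h and chr5:108434449-108434568 for Atp5k. Sdha has a pair of NRF1 matches, Uqcr11 and Atp5e each have an ETS match, Atp5g3 has an ERR match, Atp5h has an NRF1 match, and no match falls inside the stretch of Atp5k. Of the stretches not printed, those of Sdhd and Uqcrh hold matches, and the rest hold none. Among those without a match are Atp5b, Cycs, Atp5g1, Cox5a, Cox7b and Atp5o.
Sdha: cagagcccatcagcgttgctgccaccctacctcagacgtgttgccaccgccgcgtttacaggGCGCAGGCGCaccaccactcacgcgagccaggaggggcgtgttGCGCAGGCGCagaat
Uqcr11: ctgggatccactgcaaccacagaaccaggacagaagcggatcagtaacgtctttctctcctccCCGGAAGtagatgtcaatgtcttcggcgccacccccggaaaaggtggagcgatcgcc
Atp5e: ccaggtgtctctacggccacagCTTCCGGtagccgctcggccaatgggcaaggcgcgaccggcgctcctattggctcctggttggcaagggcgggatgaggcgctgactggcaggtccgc
Atp5g3: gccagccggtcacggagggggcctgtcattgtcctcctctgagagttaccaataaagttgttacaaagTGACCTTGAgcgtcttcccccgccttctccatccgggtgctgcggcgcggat
Atp5h: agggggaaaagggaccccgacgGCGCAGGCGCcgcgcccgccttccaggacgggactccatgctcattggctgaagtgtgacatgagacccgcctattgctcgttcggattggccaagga
Atp5k: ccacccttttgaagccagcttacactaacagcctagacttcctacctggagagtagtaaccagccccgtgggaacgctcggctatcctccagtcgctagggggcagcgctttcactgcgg

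Over the whole window of 250 bases before to 50 after the start, the NRF1 letters were present in 9 of the 27 genes, or 33.3%, against 5.19% of the 27025 genes of the table. The ETS letters were present in 10 of the 27 (37%), against 9.93% of all genes in the table. YY1 letters (AAGATGGCG) and ERR letters were in 2 genes each (7.41%), against 1.64% and 1.43% of all genes. The CCAAT box (CCAAT) was in 15 (55.6%) against 41.1%, the SP1 letters (GGGCGG) in 8 (29.6%) against 38.2%, and the TATA box (TATAAA) in 1, Atp5l (3.7%), against 15.7%. Both strands were read, and matches of different motifs overlapped in 0 of the genes. A match is only a description of the letters.

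Some facts of the libraries touch every value. Genes of the tables held 67.3 to 93.4% of a library's full TPM scale in 23 RNA-seq libraries, and 48.9% in the E15.5 kidney RNA-seq library of replicate 2. In Ribo-seq they held 23.1 to 61.1%, and where the rest went is not given in the labels. The 13 mitochondrially encoded genes took up to 55.5% of that scale in RNA-seq of P42 heart, and as little as 0.341% in that of E15.5 liver. Defining markers of each tissue summed highest in that tissue at both stages and in both assays. The 5 markers of lung epithelium, all above 1 TPM at both stages in lung, summed to 261324 and 376097 TPM in RNA-seq of P42 lung, against 3739 and 4680 TPM in E15.5 lung, and the 5 markers of red cells (4 above 1 TPM at P42, 5 at E15.5) summed to 668 and 456 TPM in RNA-seq of P42 liver, against 102577 and 118408 TPM in E15.5 liver. The summed 4 markers of dividing cells ran from 0.301 to 12.7 TPM in P42 RNA-seq libraries and from 137 to 1289 TPM in E15.5 ones, where all 4 reached 1 TPM in every tissue; in P42 tissues 0 to 3 of them did. In these bulk samples, fewer cells of a type and less RNA per cell cannot be told apart. Stage and deposited table also cannot be told apart, because each stage and assay came as its own table of 12 libraries.

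The 34 genes took their largest share of nuclear transcripts in heart. As a share of the TPM of all listed nuclear genes, they took 6.68 and 6.75% in the RNA-seq libraries of P42 heart, against 3.16 and 3.09% in those of E15.5 heart. In kidney the share was 3.05 and 2.76% at P42, against 1.22 and 1.19% at E15.5, and in brain it was 1.53 and 1.56%, against 0.896 and 0.900%. Thus both P42 libraries lay above both E15.5 libraries in these 3 tissues. Liver also had no overlap, with 1.14 and 1.27% at P42, against 0.766 and 0.730% at E15.5. Lung went the other way, with 0.431 and 0.331% at P42, against 0.999 and 0.966% at E15.5, and retina overlapped, with 0.821 and 1.01%, against 0.906 and 0.827%. The share of footprints gave the same order of stages in heart (6.57 and 5.83% at P42, 4.27 and 4.34% at E15.5), kidney (3.02 and 2.78%, 1.77 and 1.81%), brain (1.76 and 1.76%, 1.56 and 1.44%) and lung (0.566 and 0.498%, 1.47 and 1.47%). In retina the footprint share did not overlap, at 1.45 and 1.5% at P42 against 1.17 and 1.18% at E15.5. For liver the footprint share kept the order of its mRNA share with a small gap, at 1.09 and 1.15% at P42 against 1.04 and 1.01% at E15.5. No test was run on these shares.

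**Figure D1:**
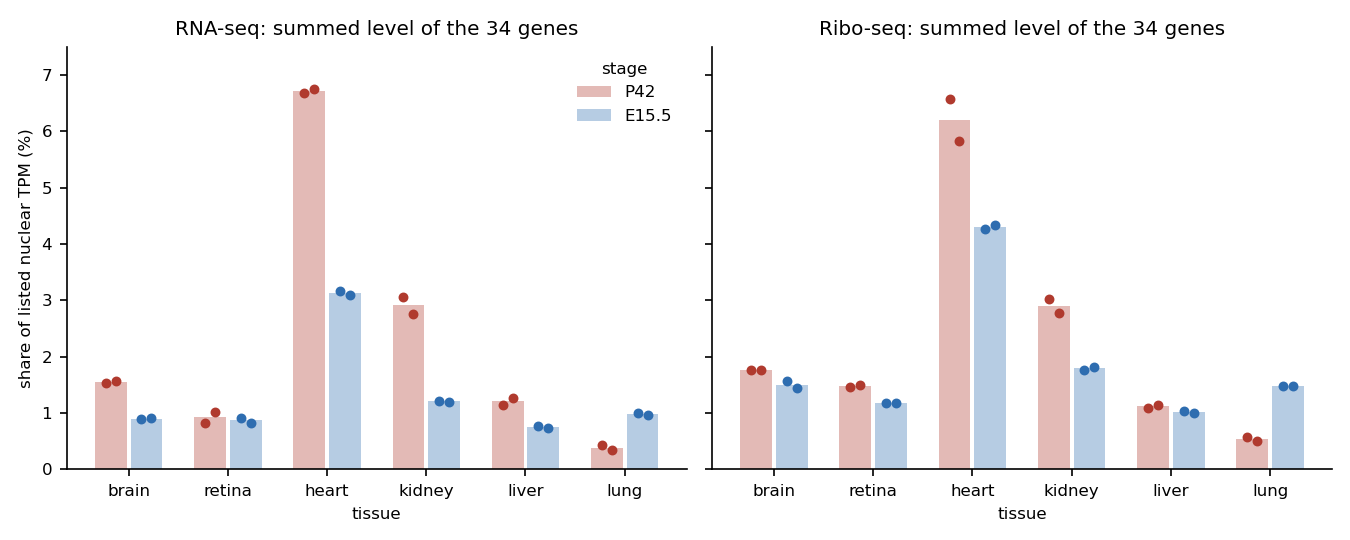
Share (percent, linear axis from 0) of the TPM of all listed nuclear genes taken by the 34 genes, by tissue, in RNA-seq and Ribo-seq. Bars are means of 2 libraries, points are libraries, and P42 stands left of E15.5; P42 heart has the tallest bars, at 6.68 and 6.75% in RNA-seq, and lung is the tissue where P42 lies below E15.5 in both assays.

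On the deposited scale heart was the highest tissue for all 34 genes at E15.5 and for 23 of them at P42. At E15.5, both heart libraries lay above every library of the other 5 tissues for all 34 genes in both assays, as for 7.26% of 15315 genes by RNA-seq and 10.1% of 13557 by footprints (genes averaging at least 1 TPM). At P42, heart had the highest mean RNA-seq TPM for 23 genes, 11 of them without overlap, where 2.58% of 15205 genes were. Kidney was highest for the other 11, of which 8 were without overlap, against 10.2% of genes. Footprints at P42 were highest in heart for 23 genes, in kidney for 10 and in brain for 1. Without overlap these were 17 in heart, 3 in kidney and 0 in brain, where 5.61%, 7.9% and 28.2% of 14332 genes were. The lowest tissue at P42 was lung for all 34 genes by RNA-seq, without overlap for 31, against 4.46% of genes. By footprints it was lung for 25, retina for 7 and liver for 2, and without overlap for 12, 5 and 0, against 1.77%, 12.4% and 22.4% of genes. At E15.5 the lowest was liver for 25 genes by RNA-seq (17 without overlap, 38.8% of genes) and retina for 33 by footprints (28 without overlap, 28.5% of genes). Listed genes held 27.9 and 23.1% of the TPM scale in E15.5 retina Ribo-seq, against 59.2 and 58.4% in liver. As a share of listed nuclear footprints the 34 genes were lower in E15.5 liver (1.04 and 1.01%) than in retina (1.17 and 1.18%).

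Heart was set against the mean of the 5 other tissues with limma on log2(TPM + 1). A gene is called here when its adjusted p (Benjamini-Hochberg over all genes tested) is below 0.05 and its log2 difference is at least 1 in size. All 34 genes passed the filter on low values in every comparison. At P42, 29 of the 34 genes were called higher in heart by mRNA and 0 lower, where 4.86% of all 15205 genes tested were called higher and 62.4% lower. The range over the 34 ran from 0.30 to 2.37 on the log2 scale. Atp5g1, a gene for the c subunit that forms the rotor ring of ATP synthase, had 231 and 210 TPM in P42 heart, against a lowest of 8.05, a median of 50.6 and a highest of 125 TPM in the 10 libraries of the other tissues. Both heart libraries lay above all 10. Its log2 difference was 2.37 (SE 0.156, adjusted p 3.75e-12), followed by Atp5o, which encodes the stator subunit OSCP, at 1.98 (SE 0.176, adjusted p 5.18e-10). All 9 genes of complex III and all 6 of complex IV were among those called, as were 11 of the 14 of complex V and 2 of the 4 of complex II. The median gene stood at -1.25 in this comparison, and measured from it all 34 were called higher, where 14.7% of genes were.

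Footprints at P42 called 26 of the 34 higher in heart and 0 lower (8.39% and 31.4% of 14332 genes). Atp5o at 1.76 (SE 0.211, adjusted p 8.75e-07) and Atp5g1 at 1.64 (SE 0.211, adjusted p 1.87e-06) again had the largest differences. At E15.5, 33 were called higher by mRNA and 0 lower (8.79% and 20.6% of 15315 genes). Cycs, the mobile electron carrier, had 162 and 156 TPM in E15.5 heart, against a lowest of 6.29, a median of 42.3 and a highest of 61.4 TPM in the other tissues, with no overlap, and was first at 2.32 (SE 0.172, adjusted p 6.86e-11), and Cox5a, a subunit of cytochrome c oxidase, followed at 2.14 (SE 0.192, adjusted p 1.63e-09). Footprints at E15.5 called all 34 higher (11.6% of 13556 genes higher and 10.5% lower), from 1.17 for Atp5g2 to 2.35 for Uqcr10. The median gene was at -0.71 for P42 footprints, -0.47 for E15.5 mRNA and -0.10 for E15.5 footprints. Translational efficiency, the log2 footprint level minus the log2 mRNA level, gave 0 calls in either direction at P42 (6.32% of 4195 genes higher and 0.381% lower) and 0 at E15.5 (0.542% of 7936 genes higher and 0.126% lower). At an unadjusted p under 0.05 limma gave 3 lower at P42 and 3 higher at E15.5. The range over the 34 genes was -0.83 to 0.41 at P42 and -0.71 to 0.69 at E15.5. After centring on the median gene, 3 genes of complex V were called lower in efficiency in P42 heart, where 1.03% of genes were.

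**Figure D2:**
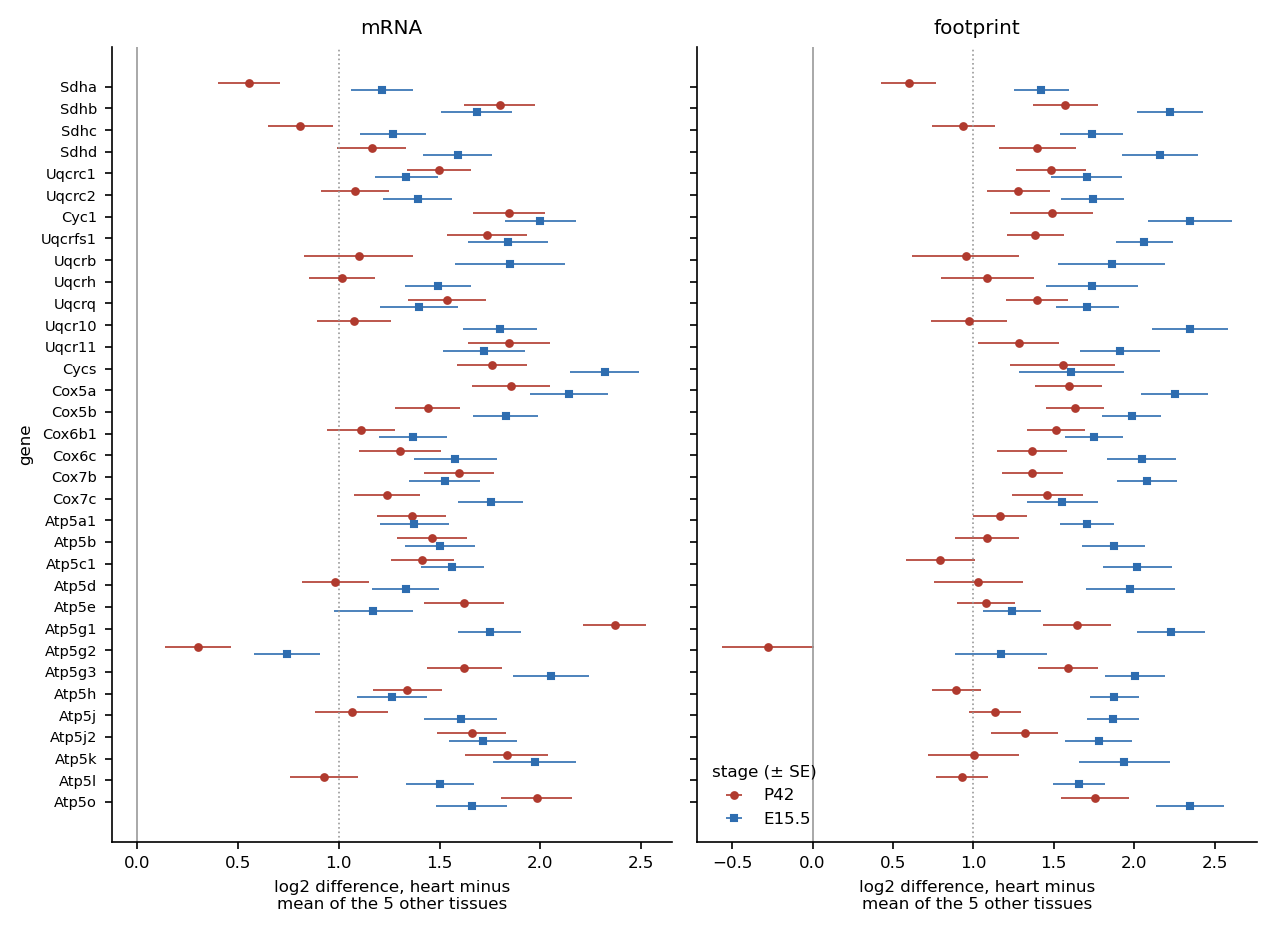
Log2 difference of heart minus the mean of the 5 other tissues for each of the 34 genes, by mRNA and by footprint. Circles are P42 and squares E15.5, bars are 1 SE, and the dotted line marks a difference of 1; 29 genes by mRNA and 26 by footprint are called at P42.

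Between stages, kidney had the most genes called higher on the deposited scale. All but 1 of the genes, 33 of 34, were called higher at P42 by mRNA and 0 lower, where 13.1% of the 14129 genes tested were called higher and 43.9% lower. The median change was 1.51, against -0.81 for the median gene. Uqcrq, a small subunit of complex III, had 518 and 372 TPM in P42 kidney, against 122 and 75.8 TPM in E15.5 kidney, a log2 difference of 2.18 (SE 0.249, adjusted p 5.04e-08). Cox6c of complex IV had 291 and 225 TPM at P42, against 78.5 and 41.3 TPM at E15.5, a difference of 2.15 (SE 0.264, adjusted p 1.56e-07). For both genes every P42 library lay above every E15.5 library. Sdhb, the iron-sulfur subunit of succinate dehydrogenase, had 529 and 450 TPM at P42, against 160 and 98.2 TPM at E15.5. The other genes called rose by 1.05 to 2.04, and all 4 genes of complex II, 9 of complex III, Cycs and 6 of complex IV were among them.

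The exception in kidney was Atp5g2, another gene for the c subunit, with 83.9 and 81.3 TPM at P42, against 115 and 73.3 TPM at E15.5 (log2 difference -0.15, not called). Its P42 values lay between the E15.5 ones. The E15.5 kidney library of replicate 2, whose listed genes summed lowest, lay 33.3 to 53% below replicate 1 for all 34 genes, and without it 21 were called higher. Relative to the median gene, 33 were called higher and 0 lower (24.2% and 20.4% of genes). Markers of the adrenal cortex summed to 1.63 and 1.94 TPM in P42 kidney RNA-seq, where 1 of 4 reached 1 TPM and Cyp21a1 was at 0. In E15.5 kidney they summed to 752 and 440 TPM, and 4 of 4 reached 1 TPM. The 5 hepatocyte markers summed to 83.4 and 74.9 TPM at P42 and to 2686 and 1643 TPM at E15.5. The 5 red-cell markers summed to 717 and 419 TPM at P42 and to 5285 and 2999 TPM at E15.5. The part of these markers in the result was not tested.

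For kidney footprints, 5 of the 34 were called higher and 0 lower (12.2% and 40.2% of 12940 genes), with both P42 libraries above both E15.5 ones for 27 genes (23.6% of genes) and a median of 0.66 against -0.74 for the median gene. Cox6c had 177 and 135 TPM of footprints at P42, against 54.9 and 53.7 TPM at E15.5 (1.49, SE 0.278, adjusted p 0.00011). Cox7b, also of complex IV, had 490 and 358 TPM, against 153 and 150 TPM (1.46, SE 0.242, adjusted p 3.23e-05). Uqcrfs1, the Rieske iron-sulfur protein of complex III, Sdha, the flavoprotein of succinate dehydrogenase, and Sdhd, a membrane anchor of that enzyme, rose by 1.28, 1.05 and 1.04. After centring on the median gene 28 were called higher (22% of genes), and without P42 kidney Ribo-seq replicate 2 the count as deposited was 12. In P42 kidney Ribo-seq, 4 of the 5 markers of lung epithelium reached 1 TPM, and the 5 summed to 727 TPM in replicate 1 and 2909 TPM in replicate 2, against 3.68 and 2.90 TPM in E15.5 kidney; their part in the count was not tested.

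Translational efficiency in kidney had a negative sign for all 34 genes, with 7 called lower and 0 higher (4.37% and 2.11% of 8595 genes) and a median of -0.88 against -0.09 for the median gene. Atp5e, the epsilon subunit of the ATP synthase stalk, was the lowest. It had 354 and 242 TPM of mRNA at P42, against 136 and 68.7 TPM at E15.5, and 220 and 159 TPM of footprints at P42, against 293 and 276 TPM at E15.5. Its mRNA was thus higher and its footprints lower at P42, with no overlap either way, and the efficiency difference was -2.19 (SE 0.354, adjusted p 0.000155). Atp5d, the delta subunit of the same stalk, followed at -1.56 (SE 0.424, adjusted p 0.021). The count rested on single libraries: it was 25 without E15.5 RNA-seq replicate 1, 11 without P42 Ribo-seq replicate 1, 3 without E15.5 Ribo-seq replicate 2, 2 without E15.5 RNA-seq replicate 2 or E15.5 Ribo-seq replicate 1, and 1 without P42 RNA-seq replicate 1 or P42 Ribo-seq replicate 2. Centring on the median gene gave 4 called lower (3.37% of genes).

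In liver, calls differed between mRNA and footprints. By mRNA 21 of 34 were called higher at P42 and 0 lower (13.4% and 47% of 12967 genes), with a median of 1.19 against -0.89 for the median gene. Atp5k, subunit e of ATP synthase, had 301 and 430 TPM of mRNA in P42 liver, against 22.5 and 18.9 TPM in E15.5 liver, a ratio of means of 17.7 and a log2 difference of 4.06 (SE 0.267, adjusted p 4.23e-12). Its footprints were 75.2 and 134 TPM at P42, against 124 and 124 TPM at E15.5, so they overlapped. Over the 10 E15.5 libraries outside heart, the median of Atp5k was 245 TPM by mRNA and 155 TPM by footprint. The E15.5 liver value was thus far below the other tissues by mRNA and not by footprint, and the reason was not tested. Uqcrb, a subunit of complex III, had 283 and 252 TPM of mRNA at P42, against 57.7 and 15.2 TPM at E15.5 (3.12, SE 0.352, adjusted p 3.51e-08), the E15.5 replicates differing widely. Cox5a had 210 and 282 TPM, against 31.5 and 23.4 TPM (3.12, SE 0.248, adjusted p 1.12e-10). Cycs had 49.2 and 33 TPM, against 7.34 and 6.29 TPM, a difference of 2.40 (SE 0.222, adjusted p 1.41e-09). For Uqcrb, Cox5a and Cycs too, the lowest mRNA value of the 10 E15.5 libraries outside heart was in liver. Their medians over those libraries were 132, 116 and 42.3 TPM. The catalytic beta subunit Atp5b was not called, at 437 and 480 TPM at P42, against 674 and 630 TPM at E15.5. On the scale of the median gene, 31 were called higher (26.1% of genes). Red-cell markers, already given for this tissue, were far higher at E15.5, and their part in the change was not tested.

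Liver footprints gave 0 genes called higher and 2 lower (10.2% and 44% of 11274 genes). Atp5g2 had 6.29 and 12.1 TPM of footprints at P42, against 28.5 and 30.7 TPM at E15.5 (-1.65, SE 0.368, adjusted p 0.000611). Atp5h, subunit d of the stator stalk, had 77.9 and 75.7 TPM, against 170 and 142 TPM (-1.01, SE 0.197, adjusted p 0.000173). Neither gene's stages overlapped, and without E15.5 liver Ribo-seq replicate 1 the count was 1. Centring gave 8 called higher and 0 lower (20.6% and 19.3% of genes). Efficiency was called lower for 20 genes and higher for 0 (19.6% and 3.89% of 6327 genes), and the median was -1.41 against -0.30 for the median gene. Atp5k led at -4.36 (SE 0.473, adjusted p 2.34e-08), and Atp5j2, subunit f of ATP synthase, followed at -2.77 (SE 0.353, adjusted p 4.37e-07) with 94.7 and 102 TPM of mRNA at P42, against 20.1 and 17.0 TPM at E15.5. Its footprints were 47.3 and 71.5 TPM at P42, against 71.4 and 85.5 TPM at E15.5. The E15.5 liver mRNA of both genes was low among tissues. For Atp5j2 the median over the 10 E15.5 libraries outside heart was 51.9 TPM. After centring, 17 were called lower (12.1% of genes).

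In heart, levels of mRNA changed little on the deposited scale. One gene each was called higher and lower (2.73% and 74.6% of 12780 genes). Uqcrq had 639 and 610 TPM in P42 heart, against 268 and 238 TPM in E15.5 heart, a difference of 1.30 (SE 0.249, adjusted p 4.19e-05). Atp5g2 had 65.7 and 60 TPM at P42, against 130 and 126 TPM at E15.5 (-1.01, SE 0.213, adjusted p 0.000121). Neither gene overlapped between stages. The median change of the 34 was 0.18 and that of all genes -1.61, so that on the scale of the median gene 33 of 34 were called higher and 0 lower (16% and 11.9% of genes), and Atp5g2 had a positive sign, at 0.59. The mitochondrially encoded share in these libraries was 54.2 and 55.5% of that TPM scale at P42, against 14.5 and 15% at E15.5. Without E15.5 heart RNA-seq replicate 1 the deposited scale gave 2 higher and 0 lower, and without P42 heart RNA-seq replicate 2 it gave 0 lower.

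By footprints in heart, a smaller share of the 34 genes than of all genes was called lower. Of the 34, 7 were called lower and 0 higher (50.6% and 10.2% of 12521 genes), with a median of -0.57 against -1.01 for the median gene. Atp5g2 had 14.5 and 16.4 TPM of footprints at P42, against 91.3 and 54.8 TPM at E15.5 (-2.13, SE 0.368, adjusted p 4.75e-05). Atp5k had 222 and 222 TPM, against 874 and 407 TPM (-1.42, SE 0.367, adjusted p 0.00178). Both genes were lower in each P42 library than in each E15.5 library. Atp5d, Atp5c1 (the gamma subunit, the central shaft of the motor) and Atp5h of complex V, Sdhc, a membrane anchor of complex II, and Uqcr10 of complex III were the others called, at -1.10 to -1.29. Without E15.5 heart Ribo-seq replicate 1 the count was 3, and without replicate 2 it was 13. Red-cell markers in those E15.5 heart Ribo-seq libraries summed to 14095 TPM in replicate 1 and 2253 TPM in replicate 2 (555 and 572 TPM in P42 heart), and their part in this was not tested. With centring 1 gene, Atp5g2, was called lower and 2, Uqcrq and Cycs, higher (11.5% and 18.2% of genes).

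Efficiency in heart was called lower for 9 genes and higher for 0 (4.94% and 10.7% of 5583 genes), with a median of -0.83 against 0.20 for the median gene, and 7 of the 9 belong to complex V. Atp5k was the lowest at -2.34 (SE 0.473, adjusted p 0.00108). Its mRNA was 1120 and 1036 TPM at P42, against 625 and 517 TPM at E15.5, while its footprints, given above, were lower at P42. Atp5d had 594 and 534 TPM of mRNA at P42, against 492 and 452 TPM at E15.5, and 219 and 185 TPM of footprints, against 621 and 393 TPM, a difference in efficiency of -1.55 (SE 0.424, adjusted p 0.0098). For both genes mRNA and footprints stood in opposite order at the stages. The count was 2 without E15.5 Ribo-seq replicate 1, 15 without E15.5 Ribo-seq replicate 2 and 5 without E15.5 RNA-seq replicate 2. On the scale of the median gene 17 were called lower (7.99% of genes).

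The stage change in heart was also tested against the mean stage change of the other 5 tissues. By mRNA 0 of the 34 genes passed the thresholds in either direction in limma (3.06% of 15774 genes higher and 36.3% lower), with 1 higher and 6 lower at an unadjusted p under 0.05. The median gene was at -0.76 by mRNA and -0.60 by footprint. Relative to the median gene 3 genes of complex V, Atp5e, Atp5g1 and Atp5o, had a larger rise in heart, by 1.21, 1.38 and 1.08 (10.7% of genes). By footprint 3 of 34 had a lower change in heart and 0 a higher one (27.7% and 5.97% of 14557 genes). They were Atp5g2 (-1.45, SE 0.404, adjusted p 0.00555), Uqcr10 (-1.37, SE 0.333, adjusted p 0.00205) and Atp5c1 (-1.22, SE 0.305, adjusted p 0.00255). After centring, 0 were called lower (8.56% of genes). The footprint count was 7 without E15.5 heart Ribo-seq replicate 2, and 5 without E15.5 brain replicate 1, E15.5 retina replicate 1, P42 kidney replicate 2 or P42 liver replicate 1 of Ribo-seq.

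In brain, 8 of the 34 were called higher at P42 by mRNA and 0 lower (11.7% and 36% of 14449 genes), with a median of 0.63 against -0.60 for the median gene. Atp5l, subunit g of ATP synthase, had 29.1 and 31.0 TPM in P42 brain, against 9.26 and 9.20 TPM in E15.5 brain (1.6, SE 0.219, adjusted p 9.47e-07). Cox7c of complex IV had 148 and 156 TPM, against 51.7 and 58.1 TPM (1.46, SE 0.209, adjusted p 1.9e-06). Uqcr10, Uqcr11 and Uqcrq of complex III, Cox5b and Cox6c of complex IV and Atp5k rose by 1.03 to 1.28. Of these 8, 7 have at least 1 annotated near-identical gene (95% identity over at least 50% of the coding sequence), as do 14 of all 34, so counting could have split reads among copies. On the scale of the median gene 22 were called higher (21.2% of genes).

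Brain footprints gave 2 genes called higher and 0 lower (20.2% and 17.7% of 13312 genes). Cox7b had 292 and 271 TPM of footprints at P42, against 113 and 113 TPM at E15.5 (1.31, SE 0.242, adjusted p 0.000145), and Sdha had 217 and 204 TPM, against 100 and 98.9 TPM (1.07, SE 0.221, adjusted p 0.000413). Relative to the median gene the counts were also 2 and 0 (20.3% and 17.5% of genes), and without E15.5 brain Ribo-seq replicate 2, 3 were called lower. Efficiency was called lower for 4 genes and higher for 0 (2.28% and 27.7% of 9952 genes), with a median of -0.29 against 0.54 for the median gene. They were Atp5k at -1.72, Atp5l at -1.61, Cox7c at -1.41 and Atp5j2 at -1.33. Atp5k showed 511 and 525 TPM of mRNA at P42, against 244 and 262 TPM at E15.5, and 127 and 128 TPM of footprints, against 320 and 133 TPM. Without E15.5 brain Ribo-seq replicate 2 the count was 10, and relative to the median gene it was 13 (8.35% of genes).

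In retina few genes were called. By mRNA 1 gene was called lower and 0 higher (24.7% and 18.6% of 14015 genes), with a median of 0.04 against -0.23 for the median gene. It was Atp5g2, with 48.9 and 61.9 TPM in P42 retina, against 123 and 105 TPM in E15.5 retina (-1.03, SE 0.213, adjusted p 0.000175). That call was lost without E15.5 RNA-seq replicate 1 or P42 RNA-seq replicate 1, the count was 2 without P42 RNA-seq replicate 2, and relative to the median gene 0 were called (19.2% of genes lower, 22.4% higher). Without E15.5 RNA-seq replicate 1, 1 gene was called higher. By footprint 2 were called higher and 0 lower (21.3% and 16.2% of 11974 genes). Uqcrq had 96.3 and 84.2 TPM of footprints at P42, against 52.6 and 35.8 TPM at E15.5 (1.04, SE 0.252, adjusted p 0.00173), and Atp5g1 had 16.0 and 11.5 TPM, against 5.71 and 6.76 TPM (1.01, SE 0.272, adjusted p 0.00368). Leaving out either E15.5 retina Ribo-seq replicate gave 1, and after centring the count was 0 (19.6% of genes). Efficiency was called higher for 1, Atp5g2 at 1.43 (SE 0.438, adjusted p 0.0191; 11.8% of 10199 genes higher, 1.87% lower). That call was lost without E15.5 RNA-seq replicate 1, P42 RNA-seq replicate 1 or P42 Ribo-seq replicate 2, and after centring.

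In lung the calls were in the other direction. By mRNA 25 of 34 were called lower at P42 and 0 higher (53.5% and 10.1% of 14292 genes), with a median of -1.39 against -1.11 for the median gene. Atp5b, the catalytic beta subunit, had 127 and 83.7 TPM in P42 lung, against 670 and 628 TPM in E15.5 lung (-2.64, SE 0.224, adjusted p 4.48e-10). Atp5a1, the alpha subunit that surrounds the shaft together with it, had 160 and 111 TPM, against 808 and 773 TPM (-2.56, SE 0.22, adjusted p 5.32e-10). Cyc1, the cytochrome c1 of complex III, had 31.4 and 22.5 TPM, against 160 and 147 TPM. The P42 values of all 34 genes lay below the E15.5 values without overlap, as for 75.2% of the genes tested. Centring left 4 called lower, namely Atp5b, Atp5a1, Cyc1 and Atp5g1, and 0 higher (17% and 23.2% of genes). Markers of lung epithelium, given above, were far higher at P42, and their part in the result was not tested.

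Lung footprints were called lower for 14 genes and higher for 0 (22.8% and 18.6% of 13261 genes), and 9 of the 14 are of complex V. Atp5d had 75.8 and 41.0 TPM of footprints at P42, against 185 and 200 TPM at E15.5 (-1.77, SE 0.356, adjusted p 0.000308). Atp5k had 65.0 and 59.6 TPM, against 199 and 217 TPM (-1.72, SE 0.367, adjusted p 0.000514). After centring on the median gene, 12 were called lower (17.7% of genes). Efficiency was called higher for 7 and lower for 0 (39.4% and 1.28% of 8855 genes), with a median of 0.48 against 0.81 for the median gene. Cox7b was first at 1.48 (SE 0.333, adjusted p 0.000492), with 109 and 85.0 TPM of mRNA at P42, against 287 and 287 TPM at E15.5, and 138 and 83.2 TPM of footprints, against 113 and 116 TPM. Atp5b followed at 1.22 (SE 0.339, adjusted p 0.00313). The count was 1 without P42 RNA-seq replicate 2, 3 without P42 Ribo-seq replicate 1 (with 1 called lower) and 11 without P42 Ribo-seq replicate 2. Set against the median gene, 0 were called higher and 3 lower (6.97% and 8.26% of genes).

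**Figure D3:**
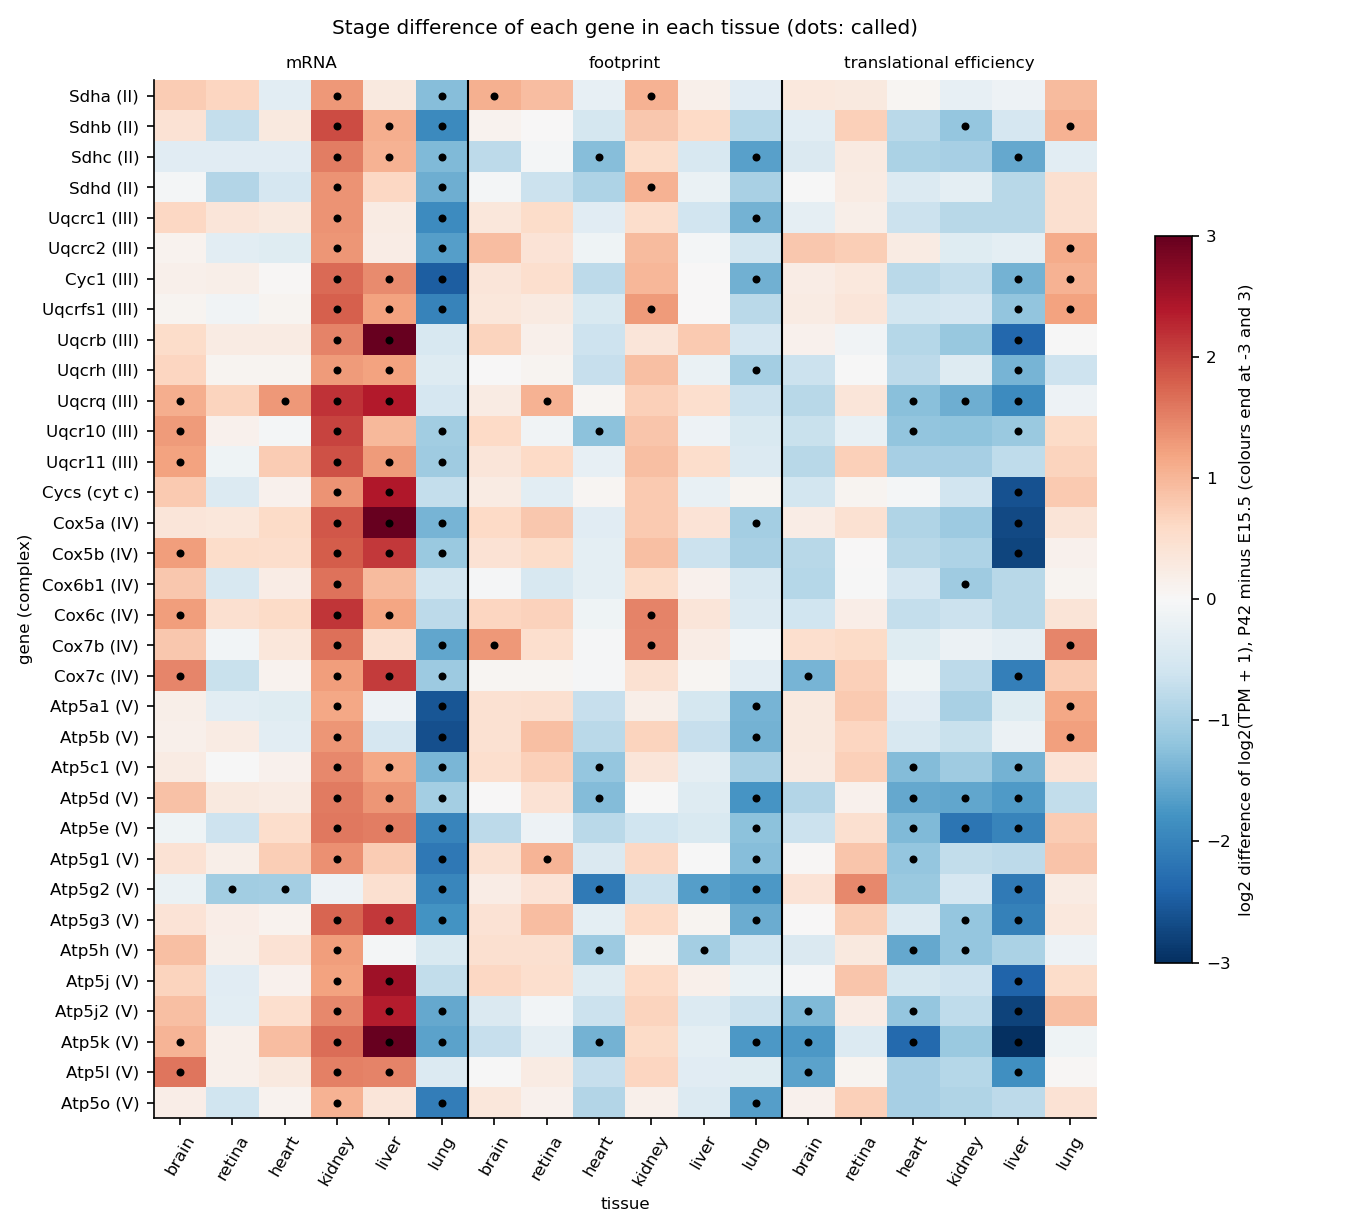
Log2 difference of P42 minus E15.5 for the 34 genes (down the page, by complex) in the 6 tissues by mRNA, footprint and translational efficiency, on the deposited scale. Colours end at -3 and 3 and dots mark called genes; the kidney and liver mRNA columns hold 33 and 21 genes called higher, and the lung mRNA column 25 called lower.

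**Figure D4:**
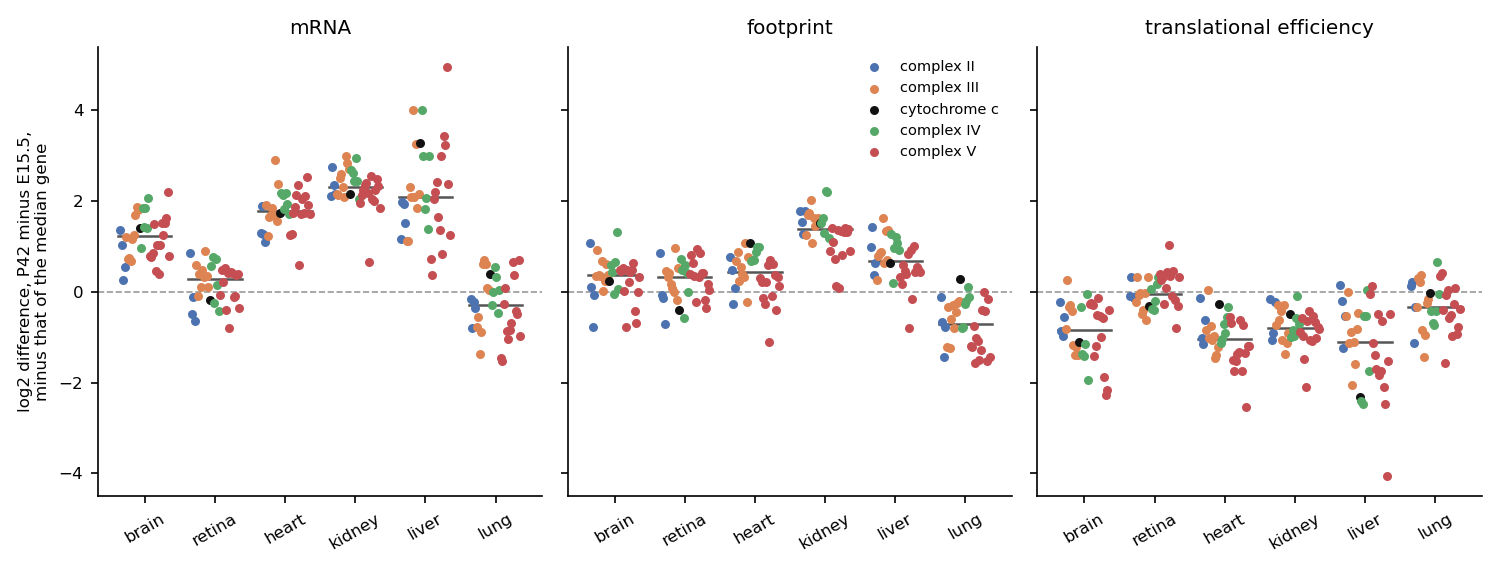
Log2 difference of P42 minus E15.5 after taking away that of the median gene, for each of the 34 genes (points, coloured by complex) by tissue and layer; lines are medians over the 34. The mRNA medians lie above 0 in all tissues except lung.

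The plot of changes relative to the median gene puts the tissues on 1 scale. There the mRNA of all 34 genes lay above the median gene in brain, heart, kidney and liver, of 21 in retina and of 13 in lung. The medians of the 34 minus the median gene were 2.32 in kidney, 2.08 in liver, 1.78 in heart, 1.23 in brain, 0.27 in retina and -0.28 in lung. For footprints they were 1.40 in kidney, 0.67 in liver, 0.44 in heart, 0.36 in brain, 0.34 in retina and -0.71 in lung. Each tissue's footprint median was nearer 0 than its mRNA median, except in retina and lung. The tissues were compared by value here, without a test.

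The 3 genes for the c subunit, Atp5g1, Atp5g2 and Atp5g3, encode the same mature protein behind different import signals, and their balance in mRNA shifted with stage. Of their summed mRNA TPM, Atp5g2 made up 6.16 ± 0.18% in P42 heart and 13.6 ± 0.44% in E15.5 heart (SD, n = 2 each). In kidney it was 9.33 ± 1.41% at P42 and 27.1 ± 2.49% at E15.5, in liver 9.36 ± 0.52% and 21.2 ± 1.74%, in retina 20.2 ± 0.96% and 37.4 ± 0.56%, and in brain 14.3 ± 0.15% and 20.5 ± 0.57%. In these 5 tissues both P42 shares lay below both E15.5 shares. Lung overlapped, at 30.2 ± 2.48% at P42 and 32.1 ± 1.57% at E15.5. In the 5 tissues other than heart the share of Atp5g3 was larger at P42 without overlap, such as 78.4 against 60.6% in kidney and 61.1 against 56.9% in lung, whereas in heart it was 72.2 against 72.4%. The share of Atp5g1 was 11.1 ± 0.61% in P42 liver and 20.7 ± 0.56% in E15.5 liver, and in heart it was 21.6 ± 0.69% at P42 and 14 ± 0.34% at E15.5. Atp5g1 has 1 and Atp5g2 has 2 near-identical annotated genes, Atp5g3 none. The annotated exons of Atp5g1, Atp5g2 and Atp5g3 hold 4912, 1675 and 2181 bases, of which 408, 438 and 423 are coding. Their footprint shares therefore depend on exon length as well. Footprints came mostly from Atp5g3, with a mean share of 86.2 to 93.8% across P42 tissues and 83.7 to 90.6% across E15.5 tissues. The footprint share of Atp5g1 was 5.67% in P42 liver and 5.70% in E15.5 liver, and in heart 5.10% and 5.39%, overlapping in both. That of Atp5g2 was lower at P42 without overlap in heart, kidney, liver and retina, and overlapped in brain and lung. No test was run on the shares.

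**Figure D5:**
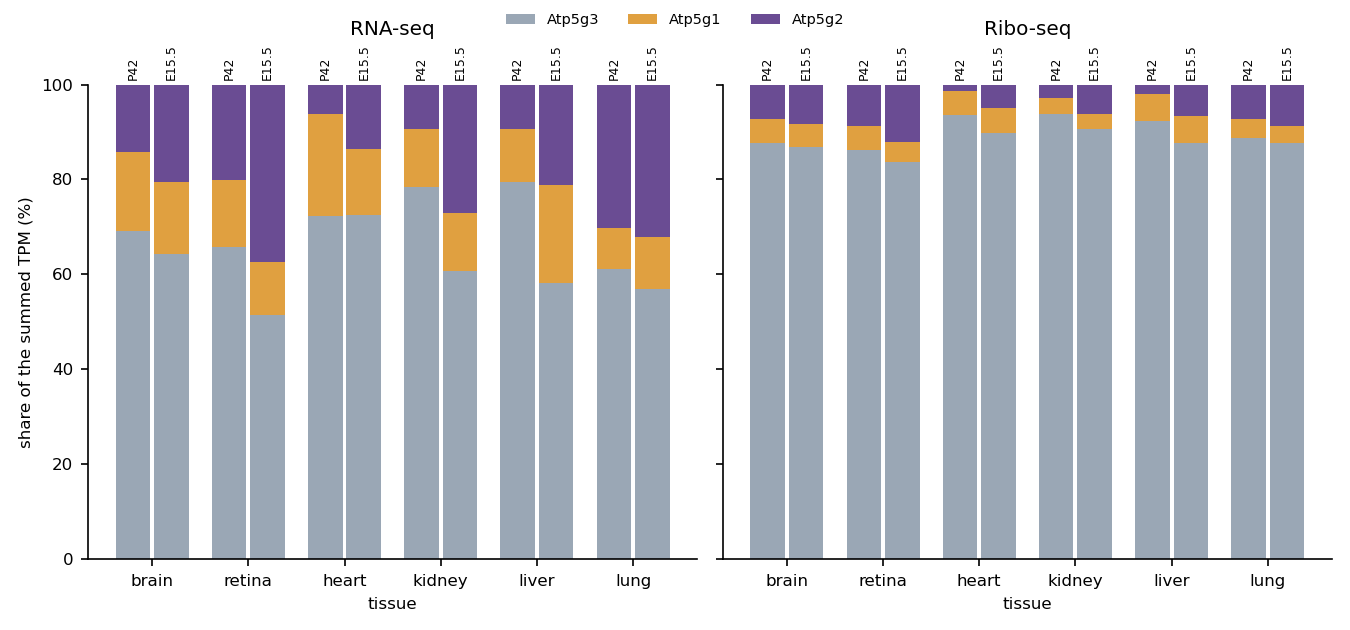
Mean share (percent) of Atp5g3, Atp5g1 and Atp5g2 in their summed TPM in each tissue, P42 left of E15.5, for RNA-seq and Ribo-seq. The Atp5g2 segment is smaller at P42 in every tissue by RNA-seq, least so in lung (30.2 against 32.1%).

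Footprint levels relative to mRNA levels differed widely among the genes. The ratio of mean Ribo-seq TPM to mean RNA-seq TPM had a median over the 12 tissues and stages of 1.55 for Atp5g3 and 1.48 for Atp5e, the highest, and of 0.352 for Atp5l and 0.296 for Cycs, the lowest. Atp5g3 lay at or above the 90.6th percentile of the genes' ratios in each of the 12. Cycs ranged more, from 0.217 in P42 retina to 2.83 in E15.5 liver. Over the 34 genes, the median ratio had a Spearman rho of -0.58 with the number of near-identical genes and of 0.24 with coding length, as a description across genes, which share libraries. The widest swing was that of Atp5k, from 0.206 in P42 heart to 5.97 in E15.5 liver. By group, the median ratio of the 34 was 0.542 in P42 brain, 0.485 in P42 heart, 0.442 in P42 kidney and 0.496 in P42 liver, against 0.682, 1.00, 0.849 and 1.22 in the E15.5 groups of those tissues. It was higher at P42 in retina (0.515 against 0.390) and lung (0.876 against 0.739). Both TPM values count reads over whole exons, while footprints lie mainly on coding sequence, which makes up 4.80 to 60.3% of the annotated exon length of these genes. Atp5o carries a further limit: another annotated gene of the same symbol that shares exons with it was not used, and held 1.77 to 2.43 times its TPM in RNA-seq and 1.53 to 2.52 times in Ribo-seq.

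Other genes of the pathway were counted from lists of named genes. Of 36 nuclear subunits of complex I, which feeds electrons from NADH into the chain, 33 were called higher by mRNA in P42 kidney, 18 in liver, 6 in brain and 4 in heart, with 18 called lower in lung. Of all genes tested, 13.1% were called higher in kidney, 13.4% in liver, 11.7% in brain and 2.73% in heart, and 53.5% lower in lung. On the scale of the median gene the complex I counts were 36 higher in kidney, 33 in liver, 29 in brain and 34 in heart, with 4 higher and 0 lower in lung. Of all genes, 24.2%, 26.1%, 21.2% and 16% were then higher in kidney, liver, brain and heart. In lung 23.2% of all genes were higher and 17% lower. The median change of complex I genes was 1.45 in kidney and 1.02 in liver, beside 1.51 and 1.19 for the 34. Ndufb10 and Ndufa13, accessory subunits of complex I, rose most in liver, by 2.43 (SE 0.21, adjusted p 3.03e-10) and 2.42. The efficiency of complex I genes was called lower for 22 of 36 in liver (19.6% of all genes) and 17 of 36 in heart (4.94%). All 13 mitochondrially encoded genes were called higher by mRNA in P42 heart, 12 in brain, 12 in liver, 11 in kidney and 7 in retina (18.6% of all genes there), with 4 higher and 1 lower in lung (10.1% and 53.5%). Among them mt-Atp8 and mt-Atp6, subunits of ATP synthase, rose by 7.47 and 6.79 in liver.

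The 35 assembly factors of complexes II to V were counted in the same way. Of these, 2 were called higher and 1 lower by mRNA in P42 kidney (13.1% and 43.9% of all genes). Liver had 9 and 4 (13.4% and 47%) and brain 2 and 3 (11.7% and 36%). Retina had 5 and 1 (18.6% and 24.7%), heart 0 and 13 (2.73% and 74.6%) and lung 0 and 23 (10.1% and 53.5%). After centring they were 16 and 0 in kidney (24.2% and 20.4% of all genes) and 16 and 1 in liver (26.1% and 22.7%). Brain then had 9 and 0 (21.2% and 17.6%) and retina 5 and 1 (22.4% and 19.2%). Heart had 9 and 0 (16% and 11.9%), and lung 4 and 5 (23.2% and 17%). The shares of all genes in a tissue also stand beside the lists that follow. Coa6, a factor for copper delivery to complex IV, rose by 1.82 in kidney and 2.79 in liver. Of the 14 citric acid cycle genes, 9 were called higher in kidney and 13 lower in lung, and after centring 13 higher and 3 lower. Among 19 other subunits and partners, heart had 3 called higher and 5 lower, and after centring 11 and 0. Cox7a1 and Cox8b, the heart and muscle forms of complex IV subunits, rose there by 2.81 (SE 0.29, adjusted p 7.92e-09) and 2.49 (SE 0.56, adjusted p 0.000264). Cox6a1 and Cox8a, the forms found in most tissues, fell by 2.32 and 1.94 on the log2 scale, and their footprints fell by 3.67 and 3.44. The median gene in heart stood at -1.61 by mRNA and -1.01 by footprint. With 0 of the 19 lower by mRNA after centring, neither mRNA fall was called on that scale. In liver Atpif1, the inhibitor of ATP synthase, fell by 2.82 in mRNA and by 4.21 in footprints. Slc25a5, an ADP/ATP carrier, fell by 3.34 in lung.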

How the data were processed

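RNA-seq (poly(A) RNA) and Ribo-seq (ribosome-protected fragments from a cycloheximide lysate, per the labels' protocols) were measured in 48 libraries. TPM values were deposited by the authors as 4 tables, 1 for each stage and assay with 12 libraries in it. Per the submitters' processing notes, CASAVA 1.8.2, cutadapt 1.8.1, TopHat2 2.0.14 and featureCounts 1.6.2 of Subread were used with build GRCm38.p6. How the annotation was chosen and how reads mapping to several genes were handled is not stated in the labels. Counts were not analysed here, so depth, and the precision it gives, is unknown.

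Deposited TPM values were taken as log2(TPM + 1). Each combination of tissue and stage was a group in models made with limma 3.58.1 (R 4.3.3; variance trend; 12 residual degrees of freedom per assay, 24 over both) and adjusted by Benjamini-Hochberg over all genes tested. A gene was tested when at least 2 libraries of the assay reached 1 TPM and its mean in the contrast reached 1 TPM, or for efficiency when mean RNA-seq reached 5 TPM in each group. Changes relative to the median gene take away the median difference of all genes tested. Fits were also run on simulated libraries with planted changes and independent noise. These held no shift of a whole library, and no result here rests on them. Near-identical genes came from BLAST 2.17.0, and tables and figures from Python 3.11.15, numpy 2.4.6, pandas 2.3.3 and matplotlib 3.10.9. The alternatives were other pseudocounts, scalings and filters, a replicate block, and leaving out each library. The 34 genes, the lists and the motifs were chosen with earlier results of these data known. All 34 genes may be named; values per library are given for a set of genes and for the 2 largest rises and falls among called genes in each tissue and layer, and listed genes outside the 34 are named by that rule of size. With 2 replicates a group, p-values rest on variances pooled over tissues.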

Additional observations from a re-analysis of the deposited data

Results flagged for a closer look

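The test of heart against the 5 other tissues gave 3 genes whose footprint change between stages was lower in heart. Uqcr10 differed by -1.37, Atp5c1 by -1.22 and Atp5g2 by -1.45 on the log2 scale. Relative to the median gene the same differences were -0.77, -0.62 and -0.85, and 0 genes passed the thresholds. Among all 14557 genes tested, 27.7% had a lower change in heart by the same rule.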

How the results depend on the processing

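The counts given under 8 other settings stayed within 1.5 times the reported ones except as follows. With a pseudocount of 4, 0 genes were called lower by mRNA in retina and in heart, 0 higher by footprint in retina and 1 lower by footprint in liver. With scaling by the median of ratios, genes called higher by mRNA numbered 24 in brain, 33 in heart and 33 in liver, and those called lower 0 in retina, 0 in heart and 3 in lung. By footprint that scaling gave 11 higher and 0 lower in heart, 31 higher in kidney, and 19 higher and 0 lower in liver. For efficiency it gave 15 lower in brain, 30 in heart and 11 in kidney, 0 higher and 6 lower in lung, and 11 lower in P42 heart against the other tissues. For the stage change of heart against other tissues it gave 13 higher by mRNA and 0 lower by footprint. The share of all genes called is not given for a pseudocount of 4 or for this scaling. These counts can therefore not be set against all genes, unlike those on the deposited and centred scales.

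Centring on the median gene gave 22 higher in brain, 33 higher and 0 lower in heart, 0 lower in retina and 4 lower in lung by mRNA. By footprint it gave 0 higher in retina, 2 higher and 1 lower in heart, 28 higher in kidney, and 8 higher and 0 lower in liver. For efficiency it gave 13 lower in brain, 0 higher in retina, 17 lower in heart, 4 lower in kidney, 0 higher and 3 lower in lung, and 3 lower in P42 heart against the other tissues. For the stage change of heart against the others it gave 3 higher by mRNA and 0 lower by footprint. Leaving out the mitochondrially encoded genes gave by mRNA 14 higher in brain, 27 higher and 0 lower in heart and 0 lower in retina. By footprint it gave 4 higher in retina, 2 lower in heart, 10 higher in kidney and 1 lower in liver. For efficiency it gave 30 lower in heart, 13 lower in kidney and 17 lower in P42 heart against the others, and for the stage change of heart it gave 9 higher by mRNA.

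Of 295 named changes, 13 changed sign under at least 1 scaling, 19 values in all. Atp5g2 mRNA in heart was 0.99 by the median of ratios, 0.59 centred and 0.11 without mitochondrially encoded genes. In lung mRNA, the median of ratios gave 0.030 for Sdha, 0.28 for Uqcr10, 0.24 for Uqcr11, 0.19 for Cox5b, 0.22 for Cox7c and 0.29 for Atp5d, and centring gave 0.077 for Uqcr10, 0.040 for Uqcr11, 0.031 for Cox7c and 0.090 for Atp5d. In heart footprints the median of ratios gave 0.041 for Sdhc, 0.10 for Uqcr10, 0.18 for Atp5c1, 0.040 for Atp5d and 0.23 for Atp5h, and in liver footprints 0.21 for Atp5h. The cause was not tested.

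Leaving out 1 library in turn gave ranges. By mRNA they were 7 to 8 higher in brain, 0 to 1 higher and 0 to 2 lower in retina, 1 to 2 higher and 0 to 1 lower in heart, 21 to 33 in kidney, 20 to 23 in liver and 21 to 25 lower in lung. By footprint they were 2 to 3 higher and 0 to 3 lower in brain, 1 to 3 in retina, 3 to 13 lower in heart, 4 to 12 in kidney, 1 to 2 lower in liver and 11 to 18 lower in lung. For efficiency they were 3 to 10 lower in brain, 0 to 1 higher in retina, 2 to 15 lower in heart, 1 to 25 in kidney, 16 to 25 in liver, and 1 to 11 higher with 0 to 1 lower in lung. Heart against the other tissues gave 27 to 31 by mRNA and 23 to 28 by footprint at P42, 33 by mRNA and 32 to 34 by footprint at E15.5, and 2 to 7 lower for the footprint stage change.

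Correlations of the deviations of same-numbered replicates ran from -0.24 to 0.33 between assays, over 0.1 in 5 of 12 pairs, and from -0.50 to 0.26 between stages, over 0.1 in 3 of 12, so the numbers were not taken to pair the samples. A fit with the replicate number as a block kept all 295 calls, and moved the kidney efficiency count from 7 to 9.

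Where a direction had 0 calls in a stage comparison, limma at an unadjusted p under 0.05 gave 0 to 3 genes in that direction by mRNA, 0 to 2 by footprint and 0 to 1 by efficiency.

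Depth behind each TPM is unknown, so counting error cannot be separated from replicate spread. With 2 replicates a group, 1 library can set a count, most often for efficiency, where 4 groups enter each difference. Stage coincides with table.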
